A study of Mus musculus with 7 samples.

Results

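The CDK inhibitors and the retinoblastoma family were examined in total RNA-seq of EGFP+ prospermatogonia, the male fetal germ cells, at 15.5 dpc (the source name in the labels says 15 dpc). The 9 genes were chosen by name as brakes of the G1 phase, not by a cutoff on their values, but with earlier results of these data known. All 9 have a value among the 20643 genes measured. They are 2 CIP/KIP inhibitors (Cdkn1a and Cdkn1b), 4 INK4 inhibitors (Cdkn2a, Cdkn2b, Cdkn2c and Cdkn2d) and 3 pocket protein genes (Rb1, Rbl1 and Rbl2). There were 7 libraries, 2 from H19Ter/H19Ter (replicates 3 and 4), 3 from H19Ter+neo/H19Ter+neo (replicates 5, 6 and 7) and 2 from WT fetuses (replicates 1 and 2). Both mutants are homozygous for a transcription terminator placed next to the H19/Igf2 imprinting control region, to cut short a transcript that runs into this region in fetal male germ cells. H19Ter+neo keeps the Pgkneo selection cassette beside the terminator, and in H19Ter it was removed by a cross to Hprt-Cre mice. According to the methods, the mutant lines came from 1 line of 129 ES cells, mutant fetuses from crosses within a genotype, and all mutants carried the TgOG2 transgene, in which the Pou5f1 promoter drives EGFP for the sort and which entered from a B6 and CBA background. Testes were pooled for digestion, and the sources used here give neither the litter of each library nor the breeding of the WT fetuses. Genotype, strain background, litter and sequencing run cannot be told apart with these libraries.

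Cyclin-dependent kinases drive a cell from G1 into S phase by phosphorylating the pocket proteins, which otherwise hold E2F transcription factors in check. INK4 inhibitors bind CDK4 and CDK6, while CIP/KIP inhibitors act on cyclin-kinase complexes more broadly. In the mouse, male germ cells leave the mitotic cycle in the fetal testis and stay arrested until after birth, and p27 and RB1 are known for their part in this arrest.

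The promoters of the 2 CIP/KIP members and of Rbl1 are shown because Cdkn1a and Cdkn1b carried the clearest differences between genotypes, and Rbl1 held the only E2F motif found. Each is the 250 bases before a transcript start, 5′ to 3′ on the strand of the gene, from RefSeq on GRCm38.p6. Capitals mark matches to a motif on either strand. A GC box was searched for as GGGCGG. A second motif was the CCAAT box, with those letters. The E2F motif could be either of TTTCGCGC and, with a change in the middle, TTTGGCGC. The fourth motif was that of p53.
Cdkn1a, upstream start, chr17:29090729-29090978 (+ strand): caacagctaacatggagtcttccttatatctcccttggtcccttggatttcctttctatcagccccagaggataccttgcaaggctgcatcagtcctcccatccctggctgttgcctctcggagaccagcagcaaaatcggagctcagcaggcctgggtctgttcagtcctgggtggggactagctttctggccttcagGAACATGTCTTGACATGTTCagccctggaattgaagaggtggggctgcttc
Cdkn1a, downstream start, chr17:29093519-29093768 (+ strand): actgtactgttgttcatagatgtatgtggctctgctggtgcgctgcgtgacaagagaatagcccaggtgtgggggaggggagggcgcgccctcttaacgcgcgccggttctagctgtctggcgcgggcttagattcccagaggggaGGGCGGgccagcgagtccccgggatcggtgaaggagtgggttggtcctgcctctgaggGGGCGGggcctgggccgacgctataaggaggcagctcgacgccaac
Cdkn1b, chr6:134920151-134920400 (+ strand): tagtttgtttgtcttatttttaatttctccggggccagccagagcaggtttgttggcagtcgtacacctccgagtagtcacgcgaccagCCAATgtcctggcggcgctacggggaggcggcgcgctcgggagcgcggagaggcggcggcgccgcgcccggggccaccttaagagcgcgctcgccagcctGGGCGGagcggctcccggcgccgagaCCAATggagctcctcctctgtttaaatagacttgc
Rbl1, chr2:157204535-157204784 (minus strand): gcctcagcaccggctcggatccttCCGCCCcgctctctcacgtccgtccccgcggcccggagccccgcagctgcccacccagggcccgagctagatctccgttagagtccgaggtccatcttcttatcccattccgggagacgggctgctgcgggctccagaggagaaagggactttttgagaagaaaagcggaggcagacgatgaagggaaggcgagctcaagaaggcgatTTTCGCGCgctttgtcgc

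Windows from 250 bases before to 50 bases after each start were available for 8 of the 9 genes, 11 windows in all. The p53 motif lay 51 to 32 bases before the upstream start of Cdkn1a, and it was searched for as a pair of sites without a spacer and with at most 1 mismatch, a tolerance chosen after the sequences were seen. It was found in 1 of the 11 windows and in 0.0884% of the 32817 windows of all genes. The E2F motif of Rbl1 lay 18 to 11 bases before its start, again in 1 of 11 windows, against 0.814% of all windows. GC boxes were in 9 of 11 windows (35.6% of all windows), and CCAAT boxes were in 4 of 11 (37.4%), with 3 in the window of Cdkn1b, 1 of them after the start. The motifs do not overlap each other in the 4 sequences, and a match describes letters only.

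Totals recovered from the deposited values came to 51.2 and 37.5 M read pairs in H19Ter/H19Ter, 84.1, 86.3 and 87.3 M in H19Ter+neo/H19Ter+neo, and 45.1 and 45.9 M in WT, so depth was highest in H19Ter+neo/H19Ter+neo. Germ cell markers identified the cells, with all 14 genes above 0 and a summed level of 4248 to 5072 CPM (read pairs per M, scaled by the submitters). Within that sum 3 of the 14 rose and 4 fell in H19Ter/H19Ter against WT, and 7 rose and 3 fell in H19Ter+neo/H19Ter+neo. Pou5f1, whose promoter drives the EGFP of the sort, fell in H19Ter+neo/H19Ter+neo (log2 fold change -0.66, limma adjusted p = 0.000143), as did Nanos2, an RNA-binding regulator of male germ cell fate (-1.12, 0.000209). Dnmt3l, a cofactor of de novo DNA methylation, rose in both mutants (1.2 in H19Ter/H19Ter and 1.21 in H19Ter+neo/H19Ter+neo, limma adjusted p = 0.000330 and 2.33e-05). Markers of somatic testis cells were low but not at 0. The 5 measured Leydig markers summed to 26.0 and 11.1 CPM in H19Ter/H19Ter, 29.8, 7.31 and 5.46 CPM in H19Ter+neo/H19Ter+neo, and 11.6 and 15.2 CPM in WT. The 9 interstitial markers summed to 125 and 63.6 CPM in H19Ter/H19Ter, 85.5, 48.6 and 54.9 CPM in H19Ter+neo/H19Ter+neo, and 53.6 and 66.1 CPM in WT. H19Ter/H19Ter replicate 3 and H19Ter+neo/H19Ter+neo replicate 5 thus stand apart in Leydig and interstitial markers. They are called the libraries rich in somatic markers below, where calls and counts without both are given. Leaving out both keeps replicate 4 as the only H19Ter/H19Ter library. The spread in that fit comes from the other genotypes, so its H19Ter/H19Ter calls and counts are no separate check on these markers. The 9 measured Sertoli markers summed to 28.1 and 24.5 CPM in H19Ter/H19Ter, 24.3, 18.1 and 19.4 CPM in H19Ter+neo/H19Ter+neo, and 21.4 and 21.7 CPM in WT, and the 6 endothelial markers to between 30.2 and 33.1 CPM in every library. Single somatic markers moved with genotype. Pdgfrb, an interstitial marker, rose in both mutants (log2 fold changes 2.0 in H19Ter/H19Ter and 1.72 in H19Ter+neo/H19Ter+neo, limma adjusted p = 0.000136 and 2.68e-05), as did Sox9, a Sertoli marker (1.40 and 0.83, limma adjusted p = 0.000780 and 0.00112). By list, 2 Sertoli markers rose and 0 fell in H19Ter/H19Ter, and 1 rose and 2 fell in H19Ter+neo/H19Ter+neo. Of the interstitial markers, 1 rose and 0 fell in H19Ter/H19Ter, and 2 rose and 1 fell in H19Ter+neo/H19Ter+neo. In H19Ter/H19Ter 1 endothelial marker rose and 1 fell, and in H19Ter+neo/H19Ter+neo 4 rose and 1 fell. No Leydig marker passed against WT by limma. The single markers named here were chosen after their values were seen. No measured marker was at 0, and the part of these shifts in the results below was not tested. Fewer cells of a type and less RNA per cell cannot be told apart in bulk libraries.

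Levels of the 9 genes were compared per length, in CPM per kb of exon over the 7 libraries (mean ± SD, n = 7). Rb1, the main pocket protein gene, was highest at 35.3 ± 4.21, above every other member in every library. Cdkn1b, which encodes p27, followed at 11.3 ± 2.51, and Cdkn2a, which encodes p16INK4a and p19ARF from 1 gene, at 8.49 ± 1.16. Then came Rbl1 (p107) at 6.58 ± 0.334, Cdkn2b (p15) at 3.02 ± 0.585, Cdkn2d (p19INK4d) at 2.91 ± 0.356, Cdkn1a (p21) at 2.58 ± 0.798 and Rbl2 (p130) at 1.61 ± 0.112. Cdkn2c (p18) was lowest at 0.471 ± 0.0888. The ranges of neighbours in this order overlapped for Cdkn1b and Cdkn2a, Cdkn2a and Rbl1, Cdkn2b and Cdkn2d, and Cdkn2d and Cdkn1a, and for no other neighbours.

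**Figure D1:**
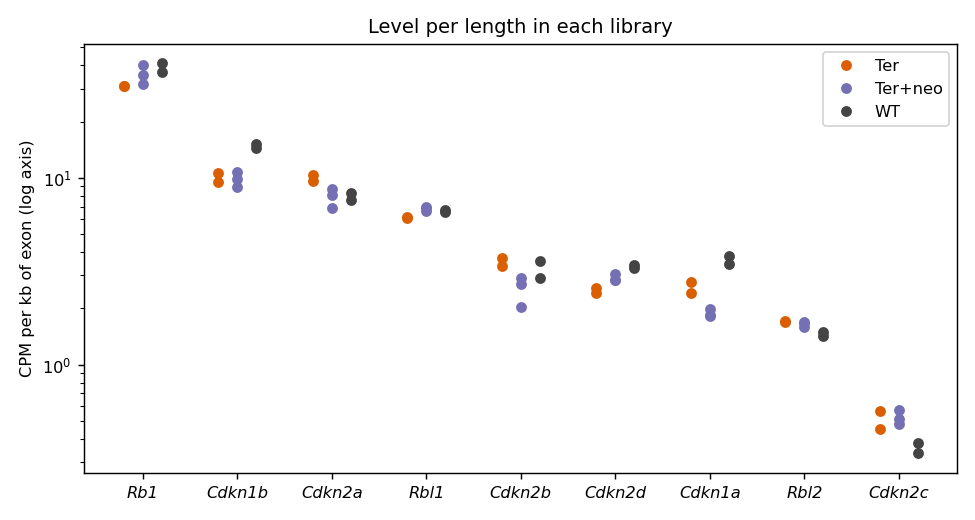
Level of each gene in each library, in CPM per kb of exon on a log axis, with genes in order of their mean and points coloured by genotype. Rb1 lies between 31.0 and 40.9 in all 7 libraries, and Cdkn2c lies between 0.334 and 0.569.

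Over the 9 genes, 0 rose and 3 fell in H19Ter/H19Ter against WT, where 14.1% of all genes rose and 11% fell (25.1% in all). In H19Ter+neo/H19Ter+neo against WT 0 rose and 2 fell, where 27.7% of all genes rose and 26.7% fell (54.4% in all), so the share of 2 in 9 is no higher than that of all genes. Between the mutants 0 rose and 1 fell, where 12.5% of all genes rose and 15.2% fell (27.7% in all). The median log2 fold change of the 9 genes was -0.12 in H19Ter/H19Ter, -0.12 in H19Ter+neo/H19Ter+neo and -0.03 between the mutants, beside -0.01, 0.01 and 0.01 for all genes. In 5 of the 9 genes the 5 mutant libraries did not overlap WT, 3 lower (Cdkn1a, Cdkn1b and Cdkn2d) and 2 higher (Cdkn2c and Rbl2), against 23.8% lower and 24.1% higher among all genes (47.8% in all). No member rose by voom either, and at an unadjusted p under 0.05 in limma 1 was higher in H19Ter/H19Ter, 1 in H19Ter+neo/H19Ter+neo and 2 between the mutants. The p-values measure the spread between these libraries, which may be technical.

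**Figure D2:**
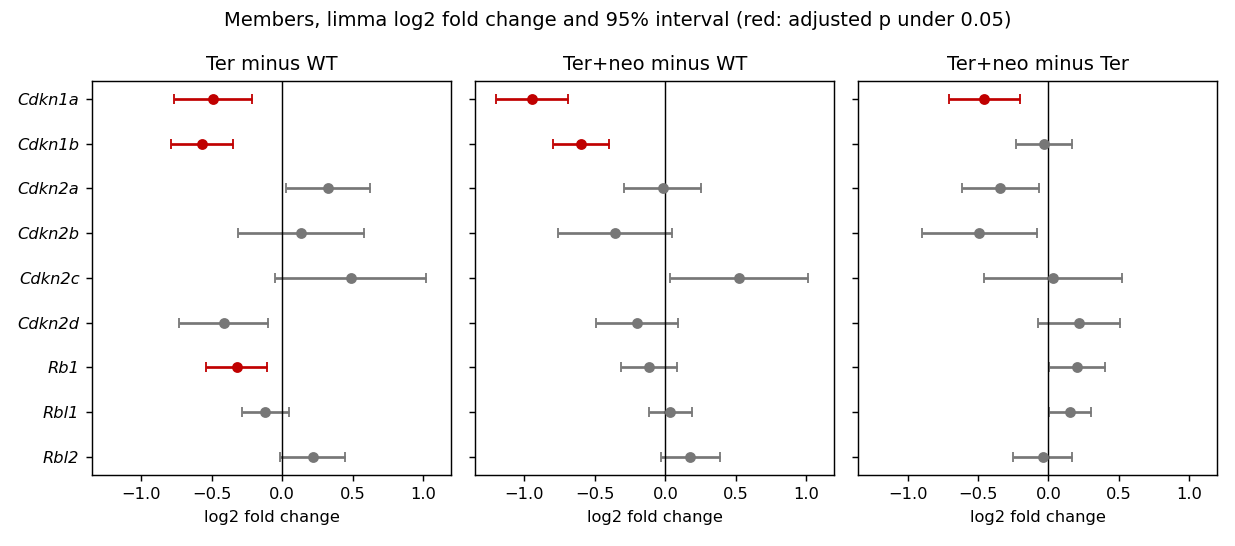
Log2 fold change of each gene in the 3 comparisons, with 95% intervals from limma, red where the adjusted p is under 0.05. Red points lie below 0 only, at Cdkn1a, Cdkn1b and Rb1 for H19Ter/H19Ter minus WT, at Cdkn1a and Cdkn1b for H19Ter+neo/H19Ter+neo minus WT, and at Cdkn1a between the mutants.

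Cdkn1a, the CIP/KIP inhibitor p21 and a classical p53 target, lies at chr17:29090976-29100727 (+ strand, GRCm38 for this and the loci below) and was lowest with the neo cassette. It had 9.81 and 8.56 CPM in H19Ter/H19Ter, 7.03, 6.58 and 6.45 CPM in H19Ter+neo/H19Ter+neo, and 12.3 and 13.5 CPM in WT. The 3 genotypes did not overlap, with H19Ter/H19Ter between the others. Against WT, Cdkn1a fell in H19Ter/H19Ter (log2 fold change -0.49, SE 0.125, limma adjusted p = 0.0189), which is 1.41-fold lower. It fell further in H19Ter+neo/H19Ter+neo (log2 fold change -0.95, SE 0.114, limma adjusted p = 0.000102), 1.93-fold lower. The direct comparison of H19Ter+neo/H19Ter+neo with H19Ter/H19Ter also passed (log2 fold change -0.45, SE 0.114, limma adjusted p = 0.0153). The smaller differences rest on few libraries. Without WT replicate 2 or without H19Ter/H19Ter replicate 4, the fall in H19Ter/H19Ter no longer passed (log2 fold changes -0.43 and -0.39, limma adjusted p = 0.139 and 0.129). Without H19Ter/H19Ter replicate 3, the difference between the mutants no longer passed (-0.36, limma adjusted p = 0.140), nor did it without both libraries rich in somatic markers (-0.39, limma adjusted p = 0.130). Without both, which leaves a single H19Ter/H19Ter library, the log2 fold change of Cdkn1a against WT was -0.59 in H19Ter/H19Ter and -0.98 in H19Ter+neo/H19Ter+neo. An antisense gene, AC167363.2, covers 273 of the 3553 exon bases of Cdkn1a, and no source used here states the strand setting of the counting.

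Cdkn1b, the p27 gene at chr6:134920401-134925513 (+ strand), fell in both mutants. It had 48.2 and 43.2 CPM in H19Ter/H19Ter, 49.0, 44.9 and 40.5 CPM in H19Ter+neo/H19Ter+neo, and 66.1 and 69.4 CPM in WT. All 5 mutant libraries were below both WT libraries, and the mutants overlapped each other. The log2 fold change against WT was -0.57 in H19Ter/H19Ter (SE 0.0991, limma adjusted p = 0.00388), which is 1.48-fold lower, and -0.60 in H19Ter+neo/H19Ter+neo (SE 0.0905, limma adjusted p = 0.000371), which is 1.52-fold lower. Between the mutants the difference was -0.03 on the log2 scale, with a 95% interval from -0.23 to 0.17 (limma adjusted p = 0.829). Cdkn1b passed in both mutants under all 17 alternative settings, although the comparisons share the WT libraries. Not all settings are separate checks, because the one without a filter equals the main fit. Leaving out a library of the genotype not compared leaves the fold change as it was. Without both libraries rich in somatic markers, the log2 fold changes were -0.65 in H19Ter/H19Ter and -0.67 in H19Ter+neo/H19Ter+neo. Cdkn1b shares no exon bases with another gene.

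Cdkn1c, the third CIP/KIP inhibitor (p57), is an imprinted gene and was measured for comparison. It had 32.3 and 30.2 CPM in H19Ter/H19Ter, 30.6, 26.1 and 25.6 CPM in H19Ter+neo/H19Ter+neo, and 25.4 and 23.7 CPM in WT, so all 5 mutant libraries were above both WT libraries. Only the rise in H19Ter/H19Ter passed (log2 fold change 0.35, limma adjusted p = 0.0356, against 0.16 and 0.185 in H19Ter+neo/H19Ter+neo), and it passed in 10 of 17 alternative settings, not without both libraries rich in somatic markers (0.30, limma adjusted p = 0.108). As a share of the summed CPM per kb of the 3 CIP/KIP genes, Cdkn1b made up 36.3 and 35.5% in H19Ter/H19Ter, 38.8, 40.2 and 38.2% in H19Ter+neo/H19Ter+neo, and 47.7 and 49.7% in WT. Cdkn1c made up 54.3 and 55.5% in H19Ter/H19Ter, 54.1, 52.3 and 54.0% in H19Ter+neo/H19Ter+neo, and 41.0 and 37.9% in WT. Cdkn1c was thus the most abundant CIP/KIP gene per length in every mutant library and Cdkn1b in both WT libraries, a description with no test. This order depends on the division by exon bases (4552 for Cdkn1b, 2039 for Cdkn1c). In CPM, Cdkn1b (40.5 to 69.4) was above Cdkn1c (23.7 to 32.3) in every library. Gm44732 covers 625 of the 2039 exon bases of Cdkn1c on the other strand.

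The ratio of Cdkn1a to Cdkn1b separates the mutants from each other. Its log2 value was -2.30 and -2.33 in H19Ter/H19Ter, -2.80, -2.77 and -2.65 in H19Ter+neo/H19Ter+neo, and -2.42 and -2.36 in WT. In H19Ter/H19Ter the ratio was slightly above that in WT, and the 3 H19Ter+neo/H19Ter+neo libraries lay below the other 4.

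**Figure D3:**
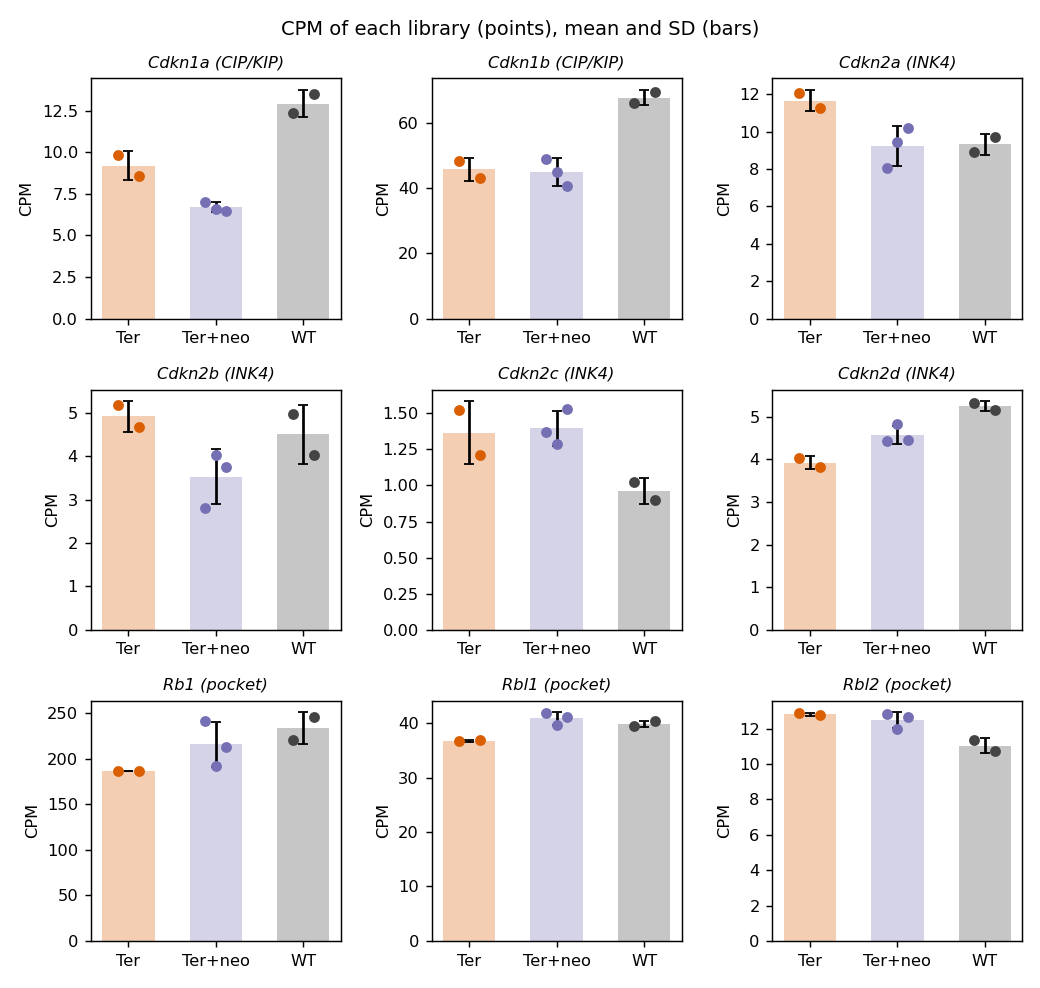
CPM of the 9 genes by genotype, with a point for each library and bars for the mean and SD (n = 2 for H19Ter/H19Ter, 3 for H19Ter+neo/H19Ter+neo and 2 for WT). For Cdkn1a and Cdkn1b, all mutant libraries lie below both WT libraries (12.3 and 13.5 CPM, 66.1 and 69.4 CPM).

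None of the 4 INK4 genes passed the test in any of the 3 comparisons, by limma or by voom, and at an unadjusted p under 0.05 in limma 2 differed in H19Ter/H19Ter against WT, 1 in H19Ter+neo/H19Ter+neo against WT and 2 between the mutants. Cdkn2a, at chr4:89274471-89294653 (minus strand), had 12.1 and 11.2 CPM in H19Ter/H19Ter, 8.07, 9.44 and 10.2 CPM in H19Ter+neo/H19Ter+neo, and 8.91 and 9.73 CPM in WT. H19Ter/H19Ter lay above both other genotypes, which overlapped. The log2 fold change was 0.32 in H19Ter/H19Ter against WT (SE 0.135, limma adjusted p = 0.103) and -0.34 in H19Ter+neo/H19Ter+neo against H19Ter/H19Ter (SE 0.123, limma adjusted p = 0.0619). The difference between the mutants passed without H19Ter+neo/H19Ter+neo replicate 7 (-0.42, limma adjusted p = 0.0380). The gene-level value sums the transcripts for p16INK4a and p19ARF, which start at separate promoters, so which of them contributed was not measured.

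Cdkn2b, beside Cdkn2a at chr4:89306299-89311039 (minus strand), had 5.17 and 4.67 CPM in H19Ter/H19Ter, 2.81, 4.03 and 3.74 CPM in H19Ter+neo/H19Ter+neo, and 4.98 and 4.02 CPM in WT. Only the mutants were apart from each other, at a log2 fold change of -0.49 for H19Ter+neo/H19Ter+neo against H19Ter/H19Ter (SE 0.184, limma adjusted p = 0.0711). Cdkn2d, at chr9:21288410-21291407 (minus strand), had 4.04 and 3.82 CPM in H19Ter/H19Ter, 4.44, 4.82 and 4.46 CPM in H19Ter+neo/H19Ter+neo, and 5.34 and 5.17 CPM in WT. All 5 mutant libraries were below WT, most so in H19Ter/H19Ter (log2 fold change -0.42, SE 0.143, limma adjusted p = 0.0563, and -0.20 in H19Ter+neo/H19Ter+neo, limma adjusted p = 0.219). Cdkn2c, at chr4:109660876-109667189 (minus strand), was rare, with 81 and 47 read pairs in H19Ter/H19Ter, 112, 112 and 132 in H19Ter+neo/H19Ter+neo, and 46 and 40 in WT. At 1.52 and 1.21 CPM in H19Ter/H19Ter, 1.37, 1.29 and 1.53 CPM in H19Ter+neo/H19Ter+neo, and 1.03 and 0.898 CPM in WT, it was higher in all 5 mutant libraries. Its log2 fold changes of 0.49 and 0.52 against WT did not pass (limma adjusted p = 0.164 in H19Ter/H19Ter and 0.0682 in H19Ter+neo/H19Ter+neo), with 95% intervals from -0.05 to 1.02 and from 0.03 to 1.01. Without both libraries rich in somatic markers, again no INK4 gene passed in limma, with adjusted p of 0.110 or more. Within the INK4 group Cdkn2a held 50.8 to 60.6% of the summed CPM per kb in every library.

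Rb1, at chr14:73183673-73325822 (minus strand), encodes the pocket protein best known to restrain E2F and had 186 and 186 CPM in H19Ter/H19Ter, 242, 192 and 213 CPM in H19Ter+neo/H19Ter+neo, and 221 and 246 CPM in WT. Both H19Ter/H19Ter libraries were the lowest, and H19Ter+neo/H19Ter+neo overlapped WT. Rb1 fell in H19Ter/H19Ter (log2 fold change -0.32, SE 0.0982, limma adjusted p = 0.0373), which is 1.25-fold lower, and did not pass in H19Ter+neo/H19Ter+neo (-0.12, SE 0.0897, limma adjusted p = 0.283). The difference between the mutants themselves did not pass either (0.20, limma adjusted p = 0.116, 95% interval from 0.01 to 0.40), so the mutants were not shown to differ in Rb1. The fall in H19Ter/H19Ter was lost in 6 of 17 alternative settings, among them leaving out each WT or H19Ter/H19Ter library in turn (limma adjusted p from 0.0528 to 0.249). Without both libraries rich in somatic markers, which leaves a single H19Ter/H19Ter library, the log2 fold change of Rb1 there was -0.32. Exons of Rcbtb2 and Lpar6 on the other strand cover 488 and 408 of its 6015 exon bases.

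Neither of the other pocket protein genes passed the test in any comparison, although the difference of Rbl1 between the mutants had an unadjusted p of 0.0487 in limma (log2 0.15, adjusted p = 0.122). Rbl1, at chr2:157145893-157204534 (minus strand), had 36.6 and 36.8 CPM in H19Ter/H19Ter, 41.9, 39.6 and 41.1 CPM in H19Ter+neo/H19Ter+neo, and 39.5 and 40.3 CPM in WT. Its log2 fold changes against WT were -0.12 in H19Ter/H19Ter (95% interval from -0.29 to 0.05) and 0.03 in H19Ter+neo/H19Ter+neo (from -0.12 to 0.19). Rbl2, at chr8:91070057-91123844 (+ strand), had 12.9 and 12.8 CPM in H19Ter/H19Ter, 12.8, 12.0 and 12.7 CPM in H19Ter+neo/H19Ter+neo, and 11.3 and 10.7 CPM in WT. It was higher in all 5 mutant libraries by 0.22 in H19Ter/H19Ter and 0.18 in H19Ter+neo/H19Ter+neo on the log2 scale, which did not pass (limma adjusted p = 0.149 and 0.138). Aktip and Gm45464 cover 693 and 892 of the 7558 exon bases of Rbl2 on the other strand. Rb1 made up 79.6 to 83.4% of the summed CPM per kb of the 3 pocket protein genes in every library.

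Genes on which these inhibitors act were next compared, from lists of their pathway. Their counts are read against all genes, of which 25.1% passed in H19Ter/H19Ter (14.1% higher, 11% lower) and 54.4% in H19Ter+neo/H19Ter+neo (27.7% higher, 26.7% lower). The germ cell and somatic marker shifts given above ran alongside these lists. Of 9 G1 cyclins and kinases, 0 rose and 2 fell in H19Ter/H19Ter (median log2 fold change -0.18). In H19Ter+neo/H19Ter+neo 0 rose and 4 fell (median -0.19). Taking both directions together, in neither mutant did a larger share pass than among all genes. The falls alone were a larger share than the 11% and 26.7% lower among all genes, with no test of the list. Cdk6, a partner of D-type cyclins and a target of INK4 proteins, had 76.2 and 71.0 CPM in H19Ter/H19Ter, 69.3, 55.0 and 54.7 CPM in H19Ter+neo/H19Ter+neo, and 90.5 and 100.1 CPM in WT. Cdc25a, a phosphatase that activates CDK2, had 47.5 and 42.6 CPM in H19Ter/H19Ter, 40.4, 35.8 and 33.0 CPM in H19Ter+neo/H19Ter+neo, and 57.3 and 61.9 CPM in WT. Cdk6 fell in each mutant (log2 fold changes -0.37 in H19Ter/H19Ter and -0.68 in H19Ter+neo/H19Ter+neo, limma adjusted p = 0.0384 and 0.000398). Cdc25a did too (log2 fold changes -0.40 and -0.72, limma adjusted p = 0.0200 and 0.000178). Leaving out WT replicate 2 or H19Ter/H19Ter replicate 4 lost both calls in H19Ter/H19Ter, and Cdk6 kept its call there in 11 of 17 alternative settings. The count of 2 became 0 without either of these libraries, 1 without WT replicate 1 or H19Ter/H19Ter replicate 3, 5 with the GC and length trend removed, and 3 without both libraries rich in somatic markers (4 in H19Ter+neo/H19Ter+neo).

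Among 10 E2F and DP genes, of whose products pocket proteins bind some but not all, 0 rose and 5 fell in each mutant. The medians were -0.29 in H19Ter/H19Ter and -0.21 in H19Ter+neo/H19Ter+neo, and among all genes 11% and 26.7% were lower. E2f3, an activating E2F, had 25.8 and 26.0 CPM in H19Ter/H19Ter, 20.8, 18.5 and 16.0 CPM in H19Ter+neo/H19Ter+neo, and 38.9 and 40.4 CPM in WT. E2f4, the E2F most often paired with p107 and p130, had 17.8 and 18.6 CPM in H19Ter/H19Ter, 12.2, 12.4 and 10.7 CPM in H19Ter+neo/H19Ter+neo, and 24.4 and 25.2 CPM in WT. The 3 genotypes did not overlap in either gene. The log2 fold changes in H19Ter+neo/H19Ter+neo were -1.11 for E2f3 and -1.08 for E2f4 (limma adjusted p = 2.91e-05 and 2.29e-05). In H19Ter/H19Ter they were -0.61 for E2f3 and -0.45 for E2f4 (limma adjusted p = 0.00567 and 0.0146). Tfdp1, the DP partner of E2F, fell in H19Ter/H19Ter (log2 fold change -0.45, limma adjusted p = 0.00527) and by less in H19Ter+neo/H19Ter+neo (-0.20, limma adjusted p = 0.0495, close to the threshold). Over the alternative settings the 5 falls in H19Ter+neo/H19Ter+neo numbered from 4 to 8. They were 4 with voom, with the same total per library, and without H19Ter+neo/H19Ter+neo replicate 6 or 7. Without WT replicate 2 the calls of E2f3, E2f4 and Tfdp1 in H19Ter/H19Ter were lost, without H19Ter/H19Ter replicate 4 those of E2f4 and Tfdp1, and without H19Ter/H19Ter replicate 3 that of E2f4. The 5 falls in H19Ter/H19Ter became 0 without WT replicate 2, 1 without H19Ter/H19Ter replicate 4 and 2 without H19Ter/H19Ter replicate 3. Without both libraries rich in somatic markers 4 fell in H19Ter/H19Ter, E2f4 not among them (limma adjusted p = 0.0693), and 6 in H19Ter+neo/H19Ter+neo. MuvB proteins form the DREAM complex with p107 or p130, and the list also holds Mybl2 and Foxm1, which join MuvB at other stages. Of these 7 MuvB genes and partners, 0 rose and 2 fell in H19Ter/H19Ter, and 0 rose and 5 fell in H19Ter+neo/H19Ter+neo. Among all genes 25.1% and 54.4% were called, with 11% and 26.7% lower. The falls were a larger share than the falls among all genes, with no test of the list. The 5 falls became 2 without either WT replicate and 3 without H19Ter+neo/H19Ter+neo replicate 6, and the 2 in H19Ter/H19Ter became 0 without WT replicate 2 or either H19Ter/H19Ter replicate and 1 without WT replicate 1. With both libraries rich in somatic markers left out, 1 fell in H19Ter/H19Ter and 5 in H19Ter+neo/H19Ter+neo. Mybl2, a MYB factor that joins MuvB in S phase, fell in each mutant (log2 fold changes -0.39 in H19Ter/H19Ter and -1.17 in H19Ter+neo/H19Ter+neo, limma adjusted p = 0.0263 and 1.69e-05). Foxm1, which joins MuvB later in the cycle, passed in H19Ter+neo/H19Ter+neo (log2 fold change -0.53, limma adjusted p = 0.000353). Rbbp4 fell in H19Ter/H19Ter (-0.25, limma adjusted p = 0.0474) and in H19Ter+neo/H19Ter+neo (-0.22, limma adjusted p = 0.0282). Its call in H19Ter/H19Ter was kept in 10 of 17 alternative settings. The call of Mybl2 in H19Ter/H19Ter was lost without WT replicate 2, H19Ter/H19Ter replicate 3 or H19Ter/H19Ter replicate 4.

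Of 18 E2F and cell cycle target genes, 0 rose and 10 fell in H19Ter/H19Ter (median -0.33), and 1 rose and 10 fell in H19Ter+neo/H19Ter+neo (median -0.34). Among all genes 25.1% passed in H19Ter/H19Ter (11% lower) and 54.4% in H19Ter+neo/H19Ter+neo (26.7% lower). In both directions together, the 11 of 18 in H19Ter+neo/H19Ter+neo are near the share of all genes. The 10 falls alone were a larger share than the falls among all genes in each mutant, with no test of the list. Mcm2, a subunit of the replicative helicase, had 88.8 and 76.2 CPM in H19Ter/H19Ter, 72.5, 65.8 and 65.1 CPM in H19Ter+neo/H19Ter+neo, and 124.7 and 135.2 CPM in WT. It fell in both (log2 fold changes -0.66 in H19Ter/H19Ter and -0.94 in H19Ter+neo/H19Ter+neo, limma adjusted p = 0.00143 and 2.10e-05), and passed in both under all 17 alternative settings. Rrm2, a ribonucleotide reductase subunit, fell in both mutants (log2 fold changes -0.91 in H19Ter/H19Ter and -1.21 in H19Ter+neo/H19Ter+neo, limma adjusted p = 0.0183 and 0.000835). Mcm7 fell in H19Ter+neo/H19Ter+neo (log2 fold change -0.51, limma adjusted p = 6.97e-05) and did not pass in H19Ter/H19Ter (-0.11, limma adjusted p = 0.230). The call of Rrm2 in H19Ter/H19Ter was lost without WT replicate 2 or H19Ter/H19Ter replicate 4. Rrm1, another subunit of that enzyme, was the gene that rose in H19Ter+neo/H19Ter+neo, named here after its value was seen. The count of falls in H19Ter/H19Ter dropped to 1 without WT replicate 2, to 1 without H19Ter/H19Ter replicate 4 and to 3 without H19Ter/H19Ter replicate 3, and that in H19Ter+neo/H19Ter+neo to 6 without WT replicate 2. Without both libraries rich in somatic markers, 7 fell in H19Ter/H19Ter and 12 in H19Ter+neo/H19Ter+neo. The median of the list stayed below 0 under all 17 alternative settings, from -0.47 to -0.26 in H19Ter/H19Ter and from -0.51 to -0.25 in H19Ter+neo/H19Ter+neo.

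Genes of p27 turnover were compared because p27 is degraded after SKP2 marks it. None of the 6 measured genes passed in H19Ter/H19Ter in the main limma fit or by voom (2 at an unadjusted p under 0.05 in limma). In other limma settings 2 fell there with 2 groups only, without H19Ter+neo/H19Ter+neo replicate 7 or with the GC and length trend removed. Without H19Ter+neo/H19Ter+neo replicate 5, 1 fell. In H19Ter+neo/H19Ter+neo 3 rose and 1 fell, where 54.4% of all genes passed. With the GC and length trend removed 1 rose and 2 fell there, without WT replicate 2 it was 2 and 0, and without both libraries rich in somatic markers 2 and 1. Skp1, a subunit of the SCF ubiquitin ligase, had 345 and 338 CPM in H19Ter/H19Ter, 533, 548 and 523 CPM in H19Ter+neo/H19Ter+neo, and 369 and 378 CPM in WT. It rose by 0.52 on the log2 scale in H19Ter+neo/H19Ter+neo against WT (limma adjusted p = 3.51e-05) and by 0.65 against H19Ter/H19Ter (limma adjusted p = 5.45e-05). Cul1, the scaffold of the same ligase, had 172 and 179 CPM in H19Ter/H19Ter, 224, 205 and 214 CPM in H19Ter+neo/H19Ter+neo, and 159.5 and 174 CPM in WT (log2 fold change 0.36 in H19Ter+neo/H19Ter+neo against WT, limma adjusted p = 0.000951). The Cul1 rise no longer passed once a trend with GC content and length was removed. Skp2 itself rose by less in H19Ter+neo/H19Ter+neo against WT (log2 fold change 0.23, limma adjusted p = 0.0331). Cks1b was the gene of the list that fell there (-0.59, limma adjusted p = 0.00592). Skp2 and Cks1b are named after their values were seen, and p27 turnover was not tested.

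Upstream of the inhibitors, 0 of 9 regulators rose and 2 fell in H19Ter/H19Ter, and 2 rose and 4 fell in H19Ter+neo/H19Ter+neo. With both directions together these shares are near those of all genes (25.1% and 54.4% called, with 11% and 26.7% lower). The 4 falls became 1 without WT replicate 2 and 2 without WT replicate 1 or H19Ter+neo/H19Ter+neo replicate 7, and the 2 in H19Ter/H19Ter became 0 without WT replicate 2 and 1 without WT replicate 1 or H19Ter/H19Ter replicate 3. With the libraries rich in somatic markers left out, 1 fell in H19Ter/H19Ter, and 2 rose and 4 fell in H19Ter+neo/H19Ter+neo. Trp53, whose product activates Cdkn1a, had 44.5 and 40.8 CPM in H19Ter/H19Ter, 35.0, 30.6 and 29.5 CPM in H19Ter+neo/H19Ter+neo, and 59.6 and 68.3 CPM in WT. Like Cdkn1a, it was lowest in H19Ter+neo/H19Ter+neo with no overlap between the genotypes (log2 fold changes of -0.58 in H19Ter/H19Ter and -1.01 in H19Ter+neo/H19Ter+neo, limma adjusted p = 0.00451 and 2.84e-05), and its call in H19Ter/H19Ter was lost without WT replicate 2. Bmi1, a Polycomb gene known to repress Cdkn2a, had 107 and 115 CPM in H19Ter/H19Ter, 161, 155 and 168 CPM in H19Ter+neo/H19Ter+neo, and 111 and 118 CPM in WT. It rose in H19Ter+neo/H19Ter+neo against WT (log2 fold change 0.50, limma adjusted p = 0.000162). Mdm4 fell in H19Ter/H19Ter (-0.24, limma adjusted p = 0.0262) and in H19Ter+neo/H19Ter+neo (-0.26, limma adjusted p = 0.00417). Its call in H19Ter/H19Ter was kept in 12 of 17 alternative settings. Zbtb17, known as MIZ1, an activator of Cdkn1a and Cdkn2b, was lower in H19Ter+neo/H19Ter+neo than in H19Ter/H19Ter (log2 fold change -0.50, limma adjusted p = 0.00689), a call lost without either H19Ter/H19Ter library.

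Other p53 targets were called in shares near those of all genes. Of 16 measured, 1 rose and 2 fell in H19Ter/H19Ter, and 5 rose and 5 fell in H19Ter+neo/H19Ter+neo, beside 25.1% and 54.4% of all genes called. The 5 falls became 2 without WT replicate 2, and with the GC and length trend removed 3 rose and 7 fell. In H19Ter/H19Ter 1 rose and 2 fell without both libraries rich in somatic markers, and in H19Ter+neo/H19Ter+neo 5 rose and 4 fell. Ccng1 had 38.5 and 37.4 CPM in H19Ter/H19Ter, 65.0, 52.7 and 63.7 CPM in H19Ter+neo/H19Ter+neo, and 35.4 and 38.9 CPM in WT, and it rose in H19Ter+neo/H19Ter+neo (log2 fold change 0.70, limma adjusted p = 0.000229). Aen fell in H19Ter+neo/H19Ter+neo (-0.57, limma adjusted p = 0.000372), and Bax and Trp53inp1 fell in H19Ter/H19Ter (-0.54 and -0.30, limma adjusted p = 0.0412 and 0.0320), both kept in 11 of 17 alternative settings. Bax also fell in H19Ter+neo/H19Ter+neo (-0.66, limma adjusted p = 0.00481), where Trp53inp1 did not pass (-0.10, limma adjusted p = 0.285). By voom 0 of the 16 rose and 0 fell in H19Ter/H19Ter, and in limma none fell there without WT replicate 2 or either H19Ter/H19Ter replicate.

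**Figure D4:**
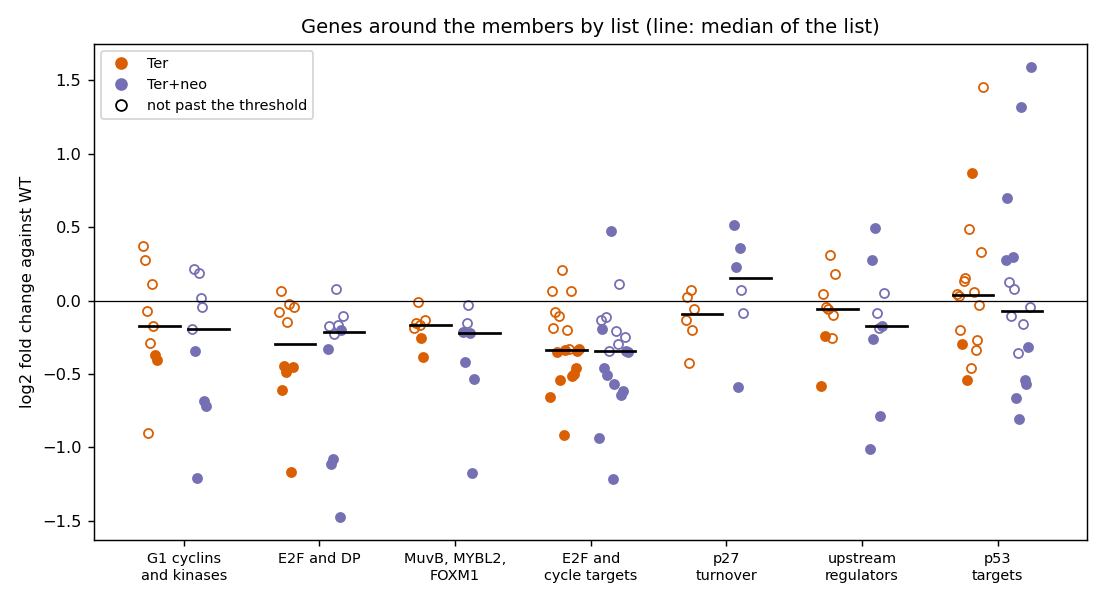
Log2 fold change against WT of each gene in 7 pathway lists, filled where the limma adjusted p is under 0.05 and open where it is not, with a line at the median of the list, for H19Ter/H19Ter and H19Ter+neo/H19Ter+neo. The lists of E2F and DP genes and of E2F and cycle targets have medians between -0.34 and -0.21, and the p53 targets lie on both sides of 0.

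The genes with the most similar profile to each member were found by the root mean square (RMS) difference of log2 CPM over the 7 libraries after centring, among 14204 candidates. Cdkn1a was closest to Rrp1b (RMS 0.0378) and Ncor1 (0.0453), and Cdkn1b to Pgam5 (0.0389) and Pskh1 (0.0438). Cdkn2a was closest to Grhl1 (0.0466) and Tns2 (0.0578), and Cdkn2d to Fam13b (0.0456) and Pex7 (0.0480). Cdkn2b had Gm40968 (0.0619) and Gm14425 (0.0693). Rb1 was closest to Tmed7 (0.0359) and Xpo1 (0.0396), Rbl1 to Odf2l (0.0194) and Zfand5 (0.0195), and Rbl2 to Rai14 (0.0215). No member was among the nearest genes of another, and a flat profile such as that of Rbl1 finds close neighbours more easily than a varied one. Cdkn2c was too low for this search.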

How the data were processed

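Total RNA-seq of EGFP+ prospermatogonia from 7 libraries was used, grouped by the genotype in the labels. Per the methods and the submitters' processing notes, reads were trimmed (Trim Galore 0.6.0), mapped to mm10 and counted over genes with STAR 2.7.8. The notes further list edgeR and deepTools. The table deposited by the authors holds log2 CPM, with a prior count scaled to each library (mean 2 reads). Undoing both gave whole read pairs for 100% of values, within 1e-06 of a read. CPM in the text come from these reads.

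limma (3.58.1, R 4.3.3) was run on the deposited log2 values of 20643 genes with genotype as the only factor, all 7 libraries and a mean-variance trend. A filter of 0.1 CPM in 2 libraries removed 0 genes, so the alternative without a filter equals the main fit. Calls needed a two-sided Benjamini-Hochberg adjusted p under 0.05 over all genes. The fit was also run on simulated counts in which a small part of the genes was changed by known folds. The simulated spread was the same in every library, so that run checks the code and does not measure error rates in these data. The members and lists were chosen with earlier results of these data known. Named genes were all members, Cdkn1c, up to 2 genes per list and comparison with the smallest adjusted p, and the 2 nearest genes per member, all but the members at a mean log2 CPM of at least 1. For Rbl2, 1 of its nearest genes is not reported here. Loci came from GENCODE vM21 on GRCm38. Alternatives were other pseudocounts, filters and scalings, voom on the recovered reads, fits of 2 groups, a GC and length trend removed, and each library left out. Figures were drawn with matplotlib 3.10.9.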

Additional observations from a re-analysis of the deposited data

Results flagged for a closer look

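Among the genes named, 21 differed between the mutants themselves, by the direct limma comparison of H19Ter+neo/H19Ter+neo with H19Ter/H19Ter at an adjusted p under 0.05. Cdkn1a was the member among them, at -0.45 on the log2 scale. Lower in H19Ter+neo/H19Ter+neo were Mybl2 (-0.79), E2f4 (-0.63), Ccnd1 (-0.56), E2f3 (-0.50), Zbtb17 (-0.50), Trp53 (-0.43), Foxm1 (-0.40), Mcm7 (-0.40), Mcm5 (-0.38), Cdc25a (-0.31), Cdk6 (-0.31), Aen (-0.30) and Mcm2 (-0.28). Higher were Ccng1 (0.67), Skp1 (0.65), Bmi1 (0.54), Ccne2 (0.47), Cul1 (0.29), Tfdp1 (0.25) and Mdm2 (0.24). Under all 17 alternatives 7 of the 21 kept their call, Mybl2, E2f4, Mcm7, Mcm5, Ccng1, Skp1 and Bmi1, while 13 lost it without H19Ter/H19Ter replicate 3, Cdkn1a and Trp53 among them. Several of these genes were named for this comparison, so their number describes the choice. No genotype has the 4 libraries needed to test for a library far from the others.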

How the results depend on the processing

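No paired analysis was possible because the genotypes share no replicate numbers. Over 17 alternatives for each of 27 member differences, 443 values kept their side of the threshold, 10 lost a call, 6 gained one and none of a called member changed sign. Cdkn1b in both mutants and Cdkn1a in H19Ter+neo/H19Ter+neo kept their calls throughout. For H19Ter/H19Ter against WT, Rb1 was also lost with the same total per library (-0.24, limma adjusted p = 0.0664) and with voom (-0.32, 0.0669), and Cdkn2d gained a call with the GC and length trend removed (-0.55, 0.0134). That removal also gave Rb1 a call in H19Ter+neo/H19Ter+neo (-0.35, 0.00404), as did leaving out H19Ter+neo/H19Ter+neo replicate 5 (-0.20, 0.0340), and it shifted the median of all genes by -0.13 in H19Ter/H19Ter and -0.12 in H19Ter+neo/H19Ter+neo. Cdkn2a gained a call between the mutants with the same total (-0.41, 0.0361), and Rb1 without H19Ter+neo/H19Ter+neo replicate 6 (0.28, 0.0312). The cause was not tested.

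Counts over all genes moved more. In H19Ter/H19Ter against WT, 5187 genes passed (56.2% higher). With voom 3092 passed, 1690 higher and 1402 lower. The same total gave 1309 lower (72.5% higher), and the GC and length trend removed gave 4921 lower (32.6% higher, and 37.9% against 50.9% in H19Ter+neo/H19Ter+neo). Leaving out each library in turn gave 1408 to 5870 genes, 1102 to 3116 higher and 306 to 2754 lower, with 1 to 3 members lower. The lowest counts were without WT replicate 2. Between the mutants 5717 passed (45.3% higher, 32.0% with the same total), and leaving out each library gave 2326 to 5404, 994 to 2454 higher and 1332 to 3090 lower, with 0 to 1 members higher and 0 to 2 lower. Without both libraries rich in somatic markers, an alternative added after seeing the data, these were 2550, 1034 higher and 1516 lower, with 0 members lower, and the same total gave 2 members lower. The falls among 18 E2F and cycle targets in H19Ter/H19Ter numbered 6 with the same total, 4 with voom, 15 with the GC and length trend removed and 1 to 10 with a library left out. In H19Ter+neo/H19Ter+neo they numbered 16 with the GC and length trend removed and 6 to 13 with a library left out. Between the mutants 4 fell, 2 to 5 with a library left out, 2 without both libraries rich in somatic markers and 2 with the trend removed. Each genotype has 2 or 3 libraries, and Cdkn2c, with 40 to 132 read pairs, is the member with the fewest reads.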
